A study of Mus musculus with 14 samples.

Results

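The difference in hypoxia response between 2 lines of transformed mouse embryonic fibroblasts was examined in 8 of the 14 RNA-seq libraries of the series and over the 16157 expressed genes of 52636 in the table. In these cells the mouse telomere protein TRF1 had been replaced by a mutant form of naked mole rat (NMR) TRF1. The TIN mutant carried Ala105Thr, and the GLAD/TIN double mutant carried Ala105Thr together with the GLAD substitutions Glu69Lys, Val70Ala and Ala75Thr. Each mutant had 2 libraries, A and B, from cells in atmospheric oxygen (normoxia) and 2 from cells in 1% oxygen (hypoxia); the length of the exposure was not given in the sources used here. All 4 groups compared carried NMR TRF1 in place of the mouse protein and were kept in serum-containing DEM medium. The quantity examined was the hypoxia effect (hypoxia minus normoxia, log2) in the double mutant minus the hypoxia effect in TIN, here called the interaction. Because all 4 groups contain the TIN substitution, this contrast asks what the added GLAD substitutions, or anything else that separates the 2 lines, went with in the response to low oxygen. The GLAD single mutant (2 normoxia and 2 hypoxia libraries) is given beside it for comparison. The labels do not give more than 1 line per mutant, so a property of the line and an effect of its substitutions cannot be told apart. By their titles, 2 of the 14 libraries carried unmutated NMR TRF1, in normoxia only, so it has no hypoxia effect here. Headers of their deposited values read NormoMouseA and NormoMouseB instead, and which name is right cannot be told from the labels. Those libraries entered the estimate of the spread and not the interaction. The labels do not say that libraries A and B came from separate cultures, so p-values here reflect library-to-library spread that could be purely technical.

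TRF1 binds double-stranded telomere repeats as part of shelterin, the protein complex that covers chromosome ends, and recruits TIN2 to it. Low oxygen stabilises the hypoxia-inducible factor (HIF), which switches on genes of glucose uptake, glycolysis, pH control and blood vessel growth through promoter and enhancer sites with the core ACGTG. The interferon pathway is a separate alarm system: DNA and RNA sensors in the cytoplasm induce interferons, these bind receptors on the cell surface, and the receptors' signal switches on antiviral genes through the interferon-stimulated response element, whose core is GAAA repeated after any 2 bases (GAAA-NN-GAAA).

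The 8 libraries held an estimated 11923587 to 14496520 reads each, and 3 reads corresponded to 0.207 to 0.252 CPM (reads scaled to a common library total), below which a gene could not be told from 0; this covers counting error only. Levels below are CPM after TMM scaling, a trimmed-mean adjustment between libraries, in the order library A then B, and log2 differences were taken after adding 0.5 CPM. A gene was called at an adjusted p under 0.05 (limma, Benjamini-Hochberg over all 16157 genes), and errors after ± are standard errors from the model. Terf1, the mouse gene of the replaced protein, read 186 and 179 CPM in TIN normoxia, 113 and 114 in TIN hypoxia, 128 and 136 in double-mutant normoxia, and 96.6 and 91.5 in double-mutant hypoxia. Its interaction was 0.20 ± 0.12 (adjusted p = 1.8e-01), and whether these reads came from the mouse locus or from the NMR construct was not tested. Summed fibroblast markers lay between 4588.4 and 8535.4 CPM in every library, of which Vim gave 1700 to 2050. Not all members followed the sum: Thy1 read 0 to 0.202 CPM in the 8 libraries. Dcn, a collagen-binding proteoglycan of fibroblasts, read 34.1 to 37.0 CPM in the 4 TIN libraries and 1160 to 1330 in the 4 double-mutant libraries. In bulk RNA, fewer cells of a kind and less RNA per cell cannot be told apart.

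Promoter windows of 4 interferon-induced genes and of 2 HIF targets are shown because these 2 groups supply the largest reversals and the largest shared rises below (RefSeq, build GRCm38.p6, written along the gene's strand; capitals mark GAAA-NN-GAAA or its reverse complement in the first 4 and ACGTG in the last 2). They come from Isg15 (chr4:156200845-156200914, minus strand), Ifit1 (chr19:34640774-34640843, plus strand), Oas1a (chr5:120907526-120907569, minus strand), Igtp (chr11:58199492-58199555, plus strand), Bnip3 (chr7:138909579-138909643, minus strand) and Ddit4 (chr10:59951923-59951987, minus strand), and each lies before the gene's start.
Isg15: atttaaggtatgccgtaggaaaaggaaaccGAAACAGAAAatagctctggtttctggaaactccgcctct
Ifit1: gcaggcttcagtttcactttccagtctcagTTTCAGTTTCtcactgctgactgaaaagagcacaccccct
Oas1a: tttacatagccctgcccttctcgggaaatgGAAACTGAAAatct
Igtp: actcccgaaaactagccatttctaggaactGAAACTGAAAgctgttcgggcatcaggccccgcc
Bnip3: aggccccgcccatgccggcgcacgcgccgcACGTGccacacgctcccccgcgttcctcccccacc
Ddit4: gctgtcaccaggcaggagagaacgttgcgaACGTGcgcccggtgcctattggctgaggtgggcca
The first 4 genes rose in hypoxia in TIN and fell in the double mutant, and the last 2 rose in both with a larger rise in TIN.

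Promoters were taken from 250 bases before to 50 bases after the RefSeq start, and both strands were searched. GAAA-NN-GAAA was present in 42 of 108 promoters of the measured genes of 6 interferon lists (38.9%), in 9 of 10 promoters of interferon-induced GTPases (90.0%) and in 424 of 13943 promoters of all genes tested (3.0%). It was present in 57 of 445 promoters (12.8%) of genes that rose in TIN and fell in the double mutant, and in 10 of 467 promoters (2.1%) of genes with the opposite reversal. The genes that rose in TIN and fell in the double mutant include 52 of the 6 interferon lists, so the 2 shares are not separate observations. ACGTG was present in 18 of 32 promoters of the HIF target list (56.2%) and in 3475 of all 13943 (24.9%). In the reversed genes ACGTG was found in 15.3% of promoters of the first kind and in 30.4% of the second. A match is a description of these letters in a 300-base window and not a measured binding site.

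The hypoxia effect differed between the mutants for 6908 of 16157 genes (42.8%). It was higher in the double mutant for 3452 genes (21.4%) and lower for 3456 (21.4%), and the difference was at least 1 on the log2 scale for 989 (6.12%) and 1073 (6.64%) of them. The median interaction over all genes was -0.03. Of the 6908 genes, 1944 were called for hypoxia in TIN only, 2317 in the double mutant only, 1447 in both mutants in the same direction with another size, and 163 in neither. A full reversal, with hypoxia called in both mutants in opposite directions, was found for 1037 genes: 514 rose in TIN and fell in the double mutant (3.18% of genes tested), and 523 fell in TIN and rose in the double mutant (3.24%). For comparison, hypoxia raised 4139 genes (25.6%) and lowered 4576 (28.3%) in TIN, raised 4171 (25.8%) and lowered 4887 (30.2%) in the double mutant, and raised 3566 (22.1%) and lowered 4201 (26.0%) in GLAD.

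**Figure D1:**
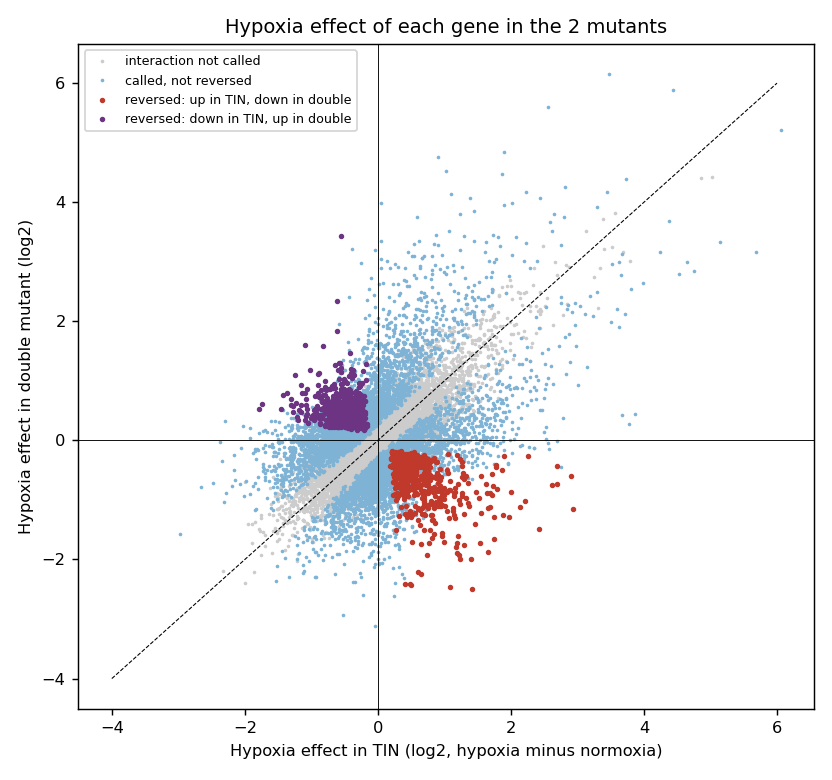
Each point is 1 of 16157 genes, with the hypoxia effect in TIN on the x axis and in the double mutant on the y axis (both log2, hypoxia minus normoxia), and the dashed line marks equal effects. Red points are the 514 genes that rose in TIN and fell in the double mutant, and purple points the 523 with the opposite reversal. At least 1 from 0 on both axes lie 35 red and 3 purple points.

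The reversals were unequal in size. Among genes that rose in TIN and fell in the double mutant, 35 (0.217% of genes tested) moved by at least 1 in both mutants. Among genes with the opposite reversal this held for 3 (0.0186%), namely Cd180, Htr2a and Gm42609, which all averaged under 5 CPM and are named after their values were seen. The median hypoxia effects were 0.53 in TIN and -0.59 in the double mutant for the first kind, and -0.47 and 0.46 for the second. In GLAD, whose libraries enter neither effect, 29 of the 514 rose and 194 fell with a median of -0.20, and 223 of the 523 rose and 27 fell with a median of 0.22.

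Most of the largest reversals were in interferon-induced genes. Zbp1 (chr2:173206612-173218923, minus strand), a sensor of Z-form nucleic acid that triggers cell death, read 2.35 and 1.34 CPM in TIN normoxia and 16.4 and 17.8 in TIN hypoxia, against 154 and 154 in double-mutant normoxia and 73.7 and 63.4 in double-mutant hypoxia. It thus rose in TIN and fell in the double mutant without overlap of libraries, and all 4 double-mutant libraries remained above all 4 TIN libraries. The interaction of Zbp1 was -4.10 ± 0.21 (adjusted p = 9.6e-11), made of 2.94 in TIN and -1.16 in the double mutant.

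Oas2 (chr5:120730333-120749853, minus strand), which makes the 2-5A signal in answer to double-stranded RNA, read 2.05 and 1.74 CPM in TIN normoxia, 12.2 and 12.4 in TIN hypoxia, 375 and 355 in double-mutant normoxia and 125 and 134 in double-mutant hypoxia. Its interaction was -3.91 ± 0.12 (adjusted p = 1.8e-13). Ifi47 (chr11:49076587-49096974, plus strand), an interferon-induced GTPase, read 0.85 and 0.447 CPM, 2.16 and 2.87, 48.0 and 43.9, and 6.63 and 9.03 in the same order of groups, with an interaction of -3.90 ± 0.24 (adjusted p = 1.5e-09). The genes Oas2 and Ifi47 kept the same order of the 4 groups as Zbp1. Apol6, Ifi27l2a and Iigp1 completed the 6 largest interactions among genes that rose by at least 1 in TIN and fell by at least 1 in the double mutant, with a mean of at least 5 CPM. Without the limit of 1 in each mutant, Apod (-3.51) and Hp (-3.44), described below, came before Iigp1. Apol6, an apolipoprotein L family member, had an interaction of -3.55 ± 0.23, Ifi27l2a one of -3.52 ± 0.20, and Iigp1, an immunity-related GTPase that attacks the vacuoles of intracellular parasites, one of -3.41 ± 0.20. Apol6 was the 1 gene of these 6 whose levels crossed: it read 48.3 and 48.9 CPM in the double mutant against 6.45 and 4.96 in TIN before hypoxia, and 6.68 and 10.5 against 12.6 and 12.6 in hypoxia. No gene of the opposite reversal with a mean of at least 5 CPM moved by at least 1 in both mutants. Stk39, of that kind and described below, had an interaction of 3.99, made of -0.56 in TIN and 3.43 in the double mutant.

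Of the interferon pathway's 6 lists, 117 of 128 genes were measured. The interaction was lower in the double mutant for 96 and higher for 6 (median -1.29, against -0.03 over all genes), and 52 reversed by rising in TIN and falling in the double mutant while 0 did the opposite. These lists were chosen with results of these data known and are not independent evidence of a direction. Over all genes, 21.4% had a higher and 21.4% a lower interaction. In GLAD 23 of the 117 rose and 49 fell.

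Ligands and receptors came first in the pathway. Of 9 measured, 3 had a higher and 1 a lower interaction (median -0.01). Ifnb1, which encodes interferon beta, was at or below the floor of 3 reads in all 4 TIN libraries (0, 0, 0.201 and 0 CPM), read 0.391 and 0.45 in double-mutant normoxia and 2.8 and 2.77 in double-mutant hypoxia. It therefore rose with hypoxia in the double mutant (1.84 ± 0.29) while the genes that interferon induces mostly fell there. Its interaction of 1.59 ± 0.41 (adjusted p = 4.7e-03) depends on the added 0.5 CPM and was not called with 0.1 CPM added (adjusted p = 8.3e-02). Jak1, a receptor-bound kinase, rose in the double mutant with an interaction of 0.74 ± 0.11, and the receptor chains Ifnar1 (-0.01) and Ifnar2 (-0.04) had interactions that were not called.

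Among the transcription factors and feedback regulators, 9 of 13 had a lower and 2 a higher interaction (median -0.78). Irf7 (chr7:141262706-141266481, minus strand), the factor that amplifies interferon output, read 14.8 and 15.7 CPM in TIN normoxia, 73.4 and 77.0 in TIN hypoxia, 868 and 877 in double-mutant normoxia and 758 and 695 in double-mutant hypoxia. Its rise in TIN of 2.26 ± 0.09 was not met by a matching fall in the double mutant, where the effect was -0.27 ± 0.09. Usp18, which shuts off receptor signalling, had an interaction of -2.20, and Irf2 (0.45) and Trim24 (0.61) were the 2 with a higher one. Irf7 shares bases with Phrf1 on the opposite strand, and since the strand setting of the counting was not given, reads of such pairs cannot be told apart.

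Of the nucleic acid sensors and their adaptors, 14 of 19 had a lower and 1 (Ikbke, 0.67) a higher interaction (median -1.06). Ifih1, the long double-stranded RNA sensor MDA5, read 11.2, 11.1, 12.6 and 12.2 CPM in TIN and was not called there (0.15 ± 0.10), but fell from 128 and 125 to 37.9 and 38.4 in the double mutant (interaction -1.86 ± 0.14, adjusted p = 1.9e-08). Tmem173, which encodes the DNA-sensing adaptor STING, followed the same form with -0.05 in TIN and -1.66 in the double mutant. Dhx58 (-2.50) and Ddx60 (-2.28), cofactors of RNA sensing, reversed. Cgas, the DNA sensor upstream of STING (-0.02), Tbk1 (0.02) and Mavs (-0.24) were not called.

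Of the measured antiviral effectors, 37 of 40 had a lower and 0 a higher interaction (median -1.91), and 24 reversed. Isg15, a ubiquitin-like modifier whose promoter is printed above, read 21.4 and 23.5 CPM in TIN normoxia, 78.1 and 75.0 in TIN hypoxia, 329 and 349 in double-mutant normoxia and 131 and 145 in double-mutant hypoxia. Its interaction was -3.04 ± 0.13, and that of Ifit1, which binds viral RNA ends, was -2.71 ± 0.10. Oasl2 (-3.25) and Oas1g (-3.22) belong to the 2-5A synthetase family with Oas2, and Oas1a and Oas1g are near-identical neighbours between which counting can split reads. Among the effectors not called were Ifi27 (-0.20) and Ifit2 (-0.09). Ifit2 fell in both mutants, by 1.27 in TIN and by 1.35 in the double mutant.

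All 15 measured interferon-induced GTPases had a lower interaction (median -1.90) and 10 of them reversed. These proteins of the Gbp and Irg families attack the vacuoles that shelter intracellular microbes. Igtp read 6.30 and 7.65 CPM in TIN normoxia, 23.8 and 22.4 in TIN hypoxia, 187 and 201 in double-mutant normoxia and 89.3 and 87.7 in double-mutant hypoxia (interaction -2.79 ± 0.14), and it overlaps Irgm2 on the same strand (-2.51). In Tgtp2 the 4 TIN libraries were at 0.0993 to 0.303 CPM, around the floor of 3 reads, and its interaction of -2.45 ± 0.32 came from the fall in the double mutant from 9.92 and 11.9 to 1.97 and 2.27 CPM.

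Antigen presentation genes had a lower interaction in 20 of 21 cases and a higher one in 0 (median -1.14), and 5 reversed. H2-K1, a class I heavy chain, read 37.4 and 41.7 CPM in TIN normoxia, 281 and 268 in TIN hypoxia, 1200 and 1289 in double-mutant normoxia and 1651 and 1560 in double-mutant hypoxia. It rose by 2.78 ± 0.08 in TIN and by 0.37 ± 0.08 in the double mutant. The immunoproteasome subunit Psmb8 (-2.34) and the peptide transporter Tap2 (-1.78) reversed, and B2m, the class I light chain, rose by 0.60 in TIN and was not called in the double mutant (-0.01).

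**Figure D2:**
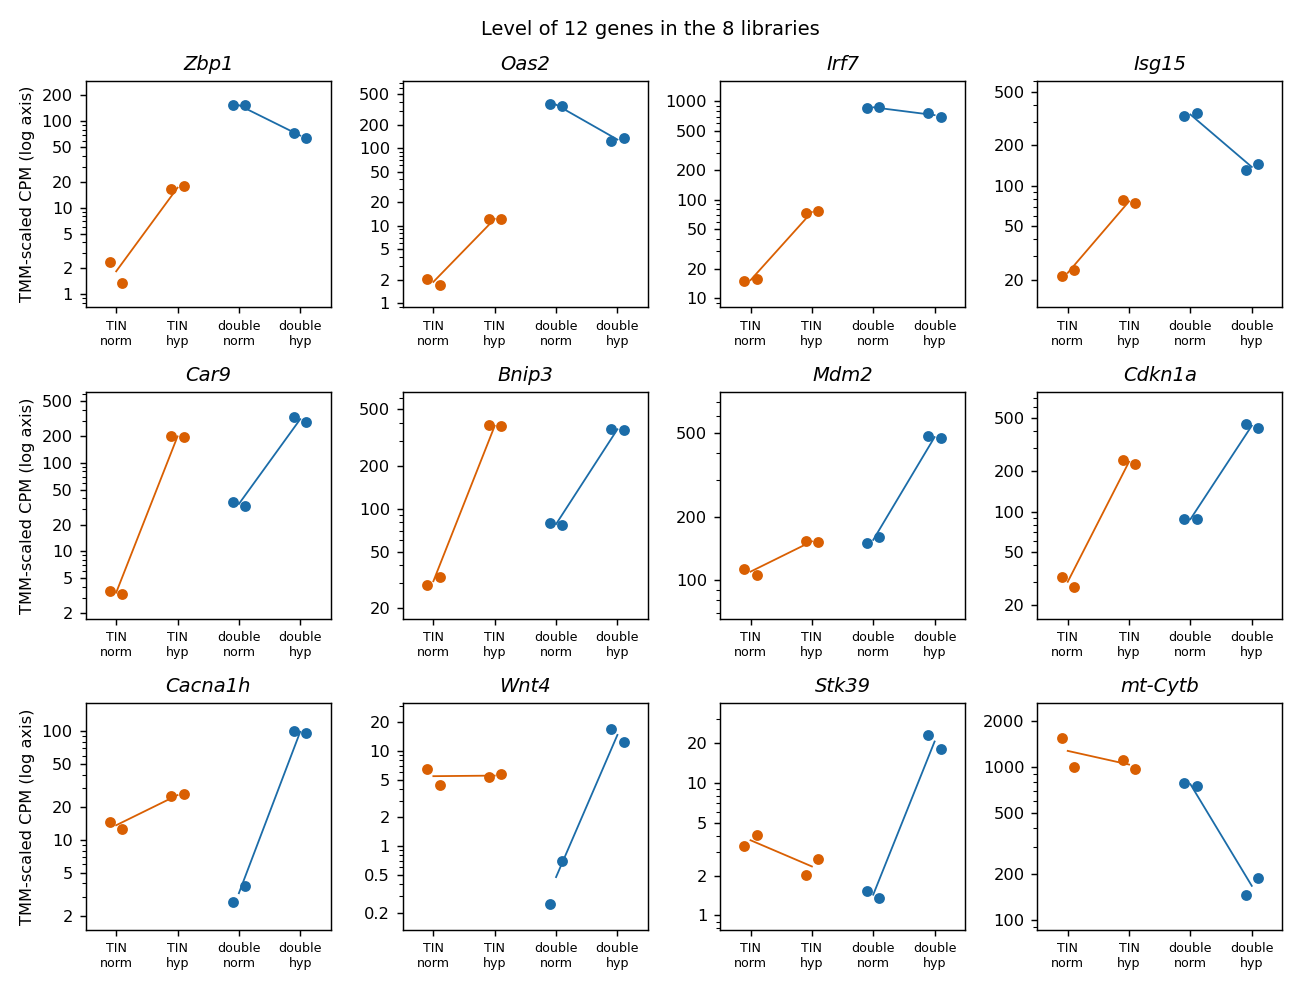
TMM-scaled CPM (log axis) of 12 genes in TIN (orange) and the double mutant (blue), normoxia and hypoxia, with 1 point per library and lines joining the means of 2 libraries. Zbp1, Oas2, Irf7 and Isg15 rise in TIN and fall in the double mutant, Car9, Bnip3, Mdm2 and Cdkn1a rise in both, Cacna1h rises in both, Stk39 falls in TIN and rises in the double mutant, and Wnt4 and mt-Cytb move in the double mutant only.

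The interaction equals the gap between the mutants (double minus TIN) in hypoxia minus the gap in normoxia, so each called gene can be sorted by where the gap lay. The gap itself was called in normoxia for 3698 genes higher (22.9%) and 4167 lower (25.8%) in the double mutant, and in hypoxia for 5188 higher (32.1%) and 5148 lower (31.9%). A gene was counted as held mostly by normoxia when minus the normoxia gap made up at least 0.75 of the interaction, and as held mostly by hypoxia when it made up at most 0.25. The latter class includes genes whose normoxia gap already had the sign of the hypoxia gap and widened (2357 genes, 34.1% of those called). Of the 6908 genes, 1694 (24.5%) were held mostly by normoxia, 3440 (49.8%) mostly by hypoxia and 1774 (25.7%) by both. The gap was called in hypoxia and not in normoxia for 2953 genes (42.7%) and in normoxia and not in hypoxia for 1265 (18.3%). These are arithmetic descriptions, since the interaction and both gaps share libraries.

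Among genes with an interaction of at least 1 in size, the 2 directions were sorted differently. Of the 595 held mostly by normoxia, 515 had a lower and 80 a higher interaction, while of the 928 held mostly by hypoxia 298 had a lower and 630 a higher one. A gap of 1 sign that narrowed in hypoxia was seen for 466 of these genes, of which 422 had a lower interaction. In the interferon lists the normoxia gap was called with the double mutant higher for 109 of the measured genes and the hypoxia gap for 98, and 90 narrowed. The median gap fell from 3.74 to 1.62 for antiviral effectors, from 4.38 to 2.20 for GTPases, from 3.5 to 1.72 for antigen presentation and from 2.35 to 1.47 for sensors. Thus the interferon genes of the double mutant mostly started far above those of TIN and stayed above them in hypoxia with a smaller gap. In normoxia TIN was also below GLAD and the libraries titled unmutated NMR TRF1 in Zbp1, Oas2 and Irf7. Zbp1 read 46.0 and 49.0 CPM in GLAD and 107 and 131 in the libraries so titled. In the same order, Oas2 read 365 and 378, then 315 and 351, and Irf7 read 503 and 562, then 550 and 658. Other members were not compared with these groups here.

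**Figure D3:**
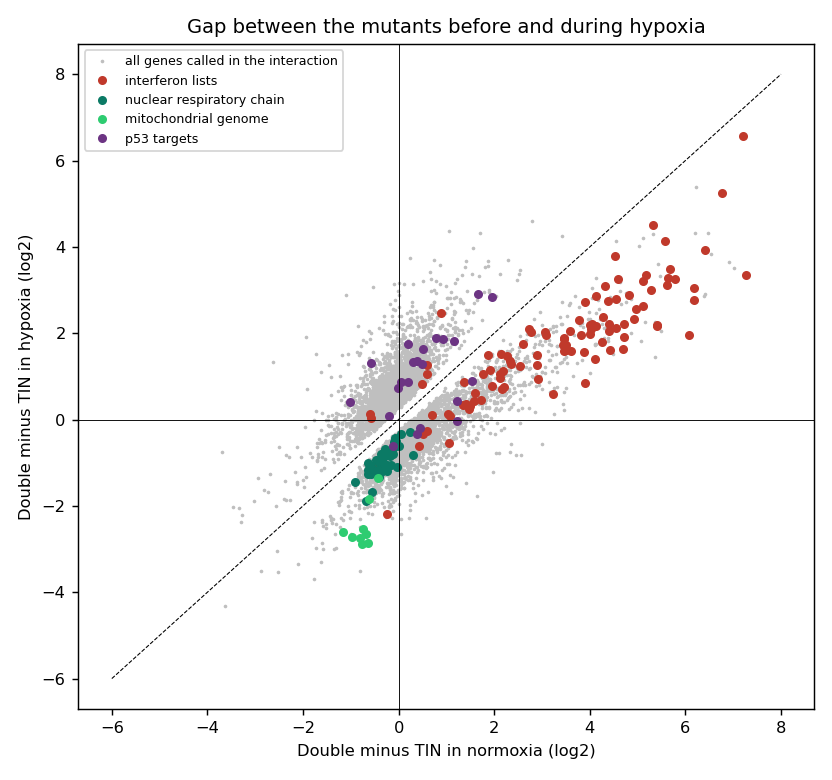
Gap between the mutants (double minus TIN, log2) in normoxia on the x axis and in hypoxia on the y axis for the 6908 genes called in the interaction, where the dashed line marks an unchanged gap. Most interferon genes (red) lie right of 0 and below the line, respiratory chain genes of the nucleus (dark green) and of the mitochondrial genome (light green) lie below 0 in hypoxia, and p53 targets (purple) lie on both sides.

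Inflammatory genes outside the interferon lists also had more lower than higher interactions, beside 21.4% of all genes in each direction. Among NF-kB and acute phase genes 15 of 23 had a lower and 2 a higher interaction (median -0.55), and among cytokines and chemokines 15 of 25 a lower and 2 a higher one (median -0.73). Lcn2, an iron-scavenging acute phase protein, read 5.90 and 5.96 CPM in TIN normoxia, 81.3 and 81.9 in TIN hypoxia, 757 and 784 in double-mutant normoxia and 984 and 1082 in double-mutant hypoxia. It rose in both mutants, by 3.67 in TIN and by 0.42 in the double mutant. Haptoglobin (Hp) had an interaction of -3.44 ± 0.31 and Serpina3n, a protease inhibitor, -3.12. Cxcl10, a chemokine that draws T cells, rose by 2.83 in TIN and by 1.12 in the double mutant (interaction -1.71 ± 0.11), from 15.0 and 15.4 to 116 and 107 CPM and from 231 and 222 to 511 and 479. In normoxia Lcn2 read 52.8 and 63.0 CPM in GLAD and 27.6 and 35.5 in the libraries titled unmutated NMR TRF1. In that order Hp read 1.01 and 1.32, then 0.656 and 1.18, against 40.2 and 36.5 in the double mutant. Cxcl10 read 104 and 105, then 157 and 180. For these genes the double mutant was the highest group in normoxia and TIN the lowest. Other members were not compared with these groups. Il6 (-0.69, adjusted p = 5.2e-02) was not called, but lay near the limit. It was called with 0.1 CPM added (adjusted p = 1.2e-02) and under several other alternatives. The opposite direction was held by Ptges (1.81) and Ptgs2 (0.76), enzymes of prostaglandin E2 synthesis, and by the colony-stimulating factors Csf3 (1.59) and Csf2 (1.00). Apod (-3.51 ± 0.18), a lipid carrier, and Tnn (-3.51 ± 0.15), the matrix protein tenascin N, were also among the 8 lowest interactions of called genes. Apod read 0.30 and 0.248 CPM in TIN normoxia, at the floor, and 5.67 and 4.94 in TIN hypoxia. In the double mutant Apod fell from 97.4 and 101 CPM to 62.3 and 67.7. Tnn rose from 1.90 and 1.74 to 29.1 and 33.8 CPM in TIN, and from 185 and 201 to 245 and 221 in the double mutant.

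HIF targets outside glycolysis rose in both mutants, and the difference was in size. Of 32 measured, 29 rose in TIN and 31 in the double mutant, and 0 fell in either. The interaction was lower for 14 and higher for 5 (median -0.10), beside 21.4% of all genes in each direction. Car9 (chr4:43506966-43513729, plus strand), the carbonic anhydrase that exports acid equivalents, read 3.55 and 3.28 CPM in TIN normoxia, 202 and 197 in TIN hypoxia, 35.9 and 32.8 in double-mutant normoxia and 334 and 291 in double-mutant hypoxia. The level was higher in the double mutant in both oxygen conditions, and the rise was 5.68 ± 0.10 in TIN and 3.16 ± 0.10 in the double mutant (interaction -2.51 ± 0.14, adjusted p = 2.0e-10). Bnip3, a receptor for the removal of mitochondria, reached 384 and 377 CPM in TIN hypoxia and 362 and 358 in double-mutant hypoxia from 28.9 and 33.0 and from 78.8 and 76.9 in normoxia, so that a normoxia gap of 1.32 became -0.08 (interaction -1.40 ± 0.11). Ddit4, an inhibitor of mTORC1, showed the same closing of the gap, from 1.22 to -0.04. Adm (-1.91), Stc1 (-1.81) and Ak4 (-1.64) also rose more in TIN. Vegfa, the angiogenic factor, had an interaction of -0.29 ± 0.10 (adjusted p = 2.5e-02), which lost its call when any of several single libraries was left out (adjusted p from 5.9e-02 to 7.8e-02 in those fits). The 5 HIF targets with a higher interaction were Lox (0.83), Car12 (0.82), Kdm3a (0.75), Hilpda (0.59) and Egln1 (0.54). Car9 and Bnip3 overlap antisense genes, so their reads carry the uncertainty named above.

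The HIF subunits and regulators themselves had a higher interaction in 5 of 11 cases and a lower one in 0 (median 0.15). Over all genes the share was 21.4% in each direction. Hif1a, the oxygen-regulated subunit, fell in TIN from 111 and 120 to 77.4 and 80.5 CPM and rose in the double mutant from 265 and 263 to 387 and 366 (interaction 1.06 ± 0.18, adjusted p = 2.0e-04). The other 4 were Epas1, which encodes HIF-2 alpha (0.87), Siah2 (0.57), Egln1 (0.54) and Cited2 (0.53).

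Of 22 glycolysis genes, 8 had a lower and 1 (Hk1, 0.65) a higher interaction (median -0.24), beside 21.4% of all genes in each direction, and the medians of the hypoxia effect were 1.53 in TIN, 1.21 in the double mutant and 1.78 in GLAD. Slc16a3, the lactate exporter, rose from 1.80 and 1.74 to 26.2 and 28.7 CPM in TIN and from 28.8 and 28.0 to 119 and 96.8 in the double mutant (interaction -1.72 ± 0.21). Pdk1, which keeps pyruvate out of the mitochondrion, had an interaction of -1.04 ± 0.11 and the phosphofructokinase Pfkl -1.10. Ldha, lactate dehydrogenase A, rose from 800 and 810 to 2837 and 2704 CPM in TIN and from 933 and 964 to 2177 and 2132 in the double mutant. Its interaction was -0.60 ± 0.11 (adjusted p = 3.3e-04), so that Ldha began higher and ended lower in the double mutant. Pgk1 (-0.36) was not called after the trend on length and GC content described below was removed (adjusted p = 1.6e-01). The glucose transporter Slc2a1 (-0.25, adjusted p = 5.4e-02) and hexokinase Hk2 (-0.32, adjusted p = 6.3e-02) were not called, although Hk2 was called with that trend removed (adjusted p = 2.1e-03). Both were called on the deposited CPM without further scaling (adjusted p = 2.0e-02 for Slc2a1 and 3.5e-02 for Hk2).

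**Figure D4:**
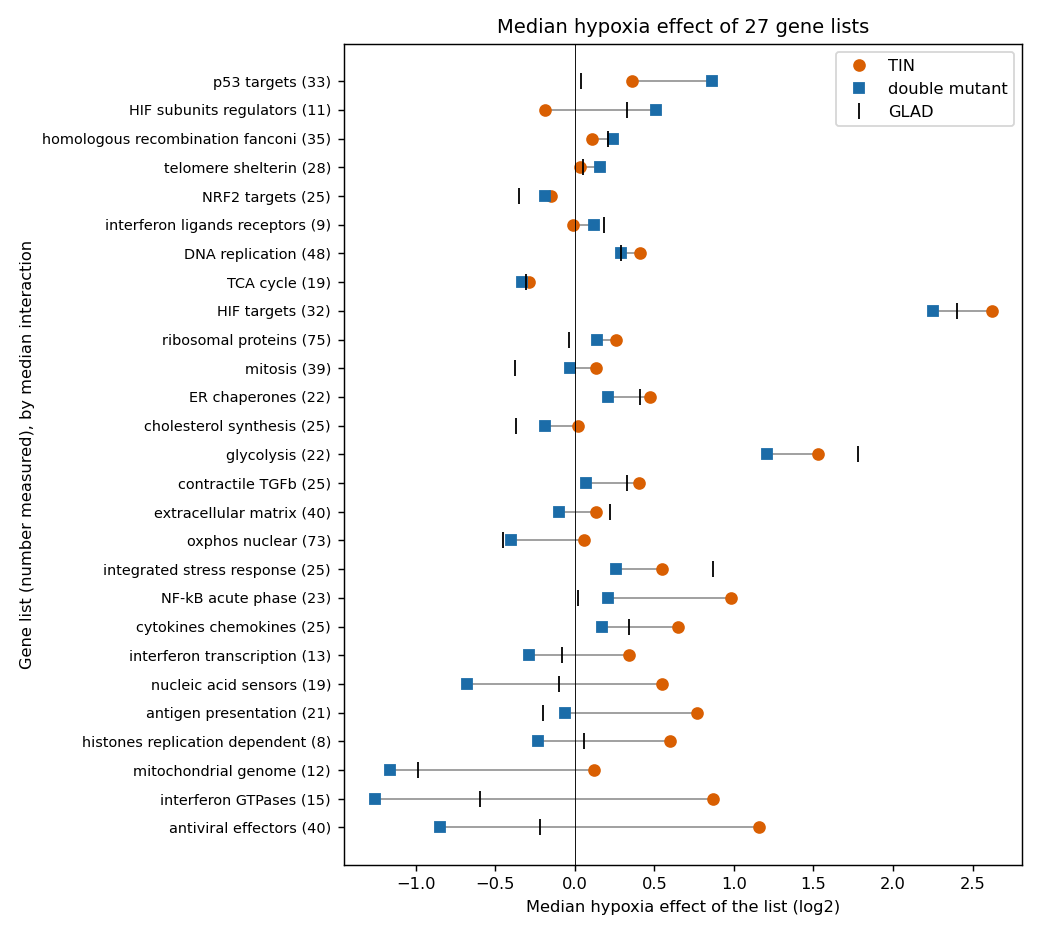
Median hypoxia effect (log2, x axis) of the measured members of 27 gene lists in TIN (orange circles), the double mutant (blue squares) and GLAD (black ticks), ordered by the median interaction with the number measured in brackets. HIF targets and glycolysis lie right of 0 in all 3 mutants, and antiviral effectors and interferon GTPases lie right of 0 in TIN and left of 0 in the double mutant.

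Among called genes the 3 highest interactions, all with a gap that changed sign, belonged to Stk39, Wnt4 and Cacna1h. Stk39 (chr2:68210445-68472268, minus strand), a kinase that acts on ion cotransporters, read 3.35 and 4.02 CPM in TIN normoxia, 2.01 and 2.67 in TIN hypoxia, 1.52 and 1.35 in double-mutant normoxia and 22.9 and 17.9 in double-mutant hypoxia (interaction 3.99 ± 0.25, adjusted p = 1.6e-09). Wnt4 (chr4:137277489-137299726, plus strand), a secreted Wnt ligand, stayed at 4.42 to 6.45 CPM in the 4 TIN libraries and rose from 0.245 and 0.70 to 17.1 and 12.4 in the double mutant, with an interaction of 3.95 ± 0.36 that was 3.39 with 1 CPM added and 4.76 with 0.1 added. Cacna1h (chr17:25374285-25433783, minus strand), a T-type calcium channel, rose from 14.7 and 12.7 to 25.5 and 26.4 CPM in TIN and from 2.69 and 3.80 to 101 and 97.8 in the double mutant (interaction 3.86 ± 0.21). In each of the 3 the double mutant was the lower group in normoxia and the higher one in hypoxia.

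Trpm2, a calcium channel gated by ADP-ribose, was at or below the floor of 3 reads in normoxia in both mutants (0.10 and 0 CPM in TIN, 0.196 and 0 in the double mutant). In hypoxia it reached 3.21 and 2.32 CPM in TIN and 30.7 and 25.7 in the double mutant, and in GLAD 33.2 and 33.0. Evpl, a protein of the epidermal envelope, rose from 1.05 and 0.745 to 4.87 and 4.44 CPM in TIN and from 2.10 and 1.55 to 75.6 and 57.5 in the double mutant (interaction 2.96 ± 0.27). These 2 genes were held mostly by hypoxia. The ubiquitin ligase Rnf128 (2.73 ± 0.28) and the circadian repressor Bhlhe41 (2.71 ± 0.18) completed the 8 highest among called genes with a mean of at least 5 CPM, and Gm43909 (3.24) lies opposite Bhlhe41 and cannot be told apart from it without strand.

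The p53 targets leaned higher in the double mutant: 16 of 33 had a higher and 6 a lower interaction (median 0.28), against 21.4% of all genes in each direction. Mdm2, the ubiquitin ligase that limits p53, rose from 113 and 106 to 153 and 152 CPM in TIN and from 150 and 160 to 482 and 472 in the double mutant (interaction 1.14 ± 0.09, adjusted p = 6.9e-08). Aen, an apoptosis-enhancing nuclease (1.87 ± 0.15), and Ccng1, cyclin G1 (1.55 ± 0.12), fell in TIN and rose in the double mutant: Aen went from 39.6 and 37.0 to 26.6 and 24.4 CPM in TIN and from 25.9 and 25.4 to 70.1 and 58.0 in the double mutant. Zmat3 (1.04) reversed in the same way, and Pmaip1, a pro-death BCL2 family member, rose in both (interaction 1.25). Cdkn1a, the cell cycle inhibitor p21, went the other way. It read 32.4 and 27.4 CPM in TIN normoxia, 244 and 228 in TIN hypoxia, 87.8 and 87.7 in double-mutant normoxia and 452 and 424 in double-mutant hypoxia, with rises of 2.97 and 2.31 and an interaction of -0.65 ± 0.12. In GLAD the median effect of the list was 0.04. With the length and GC trend described below removed, 16 targets were higher and 5 lower.

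Antioxidant genes driven by NRF2 were split, with 10 of 25 higher and 8 lower (median 0.06), beside 21.4% of all genes in each direction. Gclc, the rate-limiting enzyme of glutathione synthesis, was not called in TIN (82.9, 82.5, 75.2 and 73.9 CPM) and rose in the double mutant from 36.2 and 37.6 to 140 and 115 (interaction 1.92 ± 0.13). Txnrd1 (1.20) and Gclm (1.04) reversed upward in the double mutant, and the glutathione transferase Gstm2 (-1.60) reversed the other way. In the integrated stress response 17 of 25 had a lower and 2 a higher interaction (median -0.55). Chac1, which degrades glutathione, rose from 17.0 and 12.2 to 25.2 and 27.9 CPM in TIN and fell from 35.7 and 31.4 to 10.4 and 15.1 in the double mutant (-2.24 ± 0.24), and Atf4 (-0.80) and Atf3 (-1.07), its transcription factors, rose in both mutants and less in the double mutant.

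The genes that fell in TIN and rose in the double mutant had longer transcripts than genes in general. The median transcript length of the 523 was 5150 bases and their median genomic span 61593, against 2790 and 18416 for all genes tested. The 514 with the opposite reversal had medians of 2244 and 11970. Gphn, a scaffold protein of inhibitory synapses and molybdenum cofactor enzyme, read 32.2 and 28.7 CPM in TIN normoxia, 15.8 and 16.7 in TIN hypoxia, 28.8 and 30.4 in double-mutant normoxia and 70.4 and 61.7 in double-mutant hypoxia (interaction 2.02 ± 0.15). The mutants overlapped in normoxia, and the gap of 1.98 arose in hypoxia. Prkaa2, a catalytic subunit of the energy sensor AMPK, behaved alike in direction, falling by 0.90 in TIN and rising by 1.12 in the double mutant. Gphn and Prkaa2 were picked from the largest of this kind after their values were seen.

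This trend ran through all genes. Over the 16117 genes with a known length, Spearman's rho with transcript length was -0.22 for the hypoxia effect in TIN, 0.05 in the double mutant, 0.10 in GLAD and 0.26 for the interaction, and rho of the interaction with GC content was -0.20. Genes are not independent replicates, and these values carry no p. In the 10% of genes with the longest transcripts (median 7840 bases) the median hypoxia effect was -0.32 in TIN, 0.03 in the double mutant and 0.09 in GLAD, and 787 genes had a higher and 142 a lower interaction. In the shortest 10% (median 496 bases) the medians were 0.11, -0.05 and -0.06, with 171 higher and 291 lower. Of the 3 mutants TIN had the rho furthest from 0, and the part of RNA quality or library preparation in it was not tested. After a smooth trend on length and GC content was removed, 511 and 531 genes reversed, of which 366 and 343 were among the original 514 and 523. The median interaction of antiviral effectors was then -1.71 and that of GTPases -2.05.

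**Figure D5:**
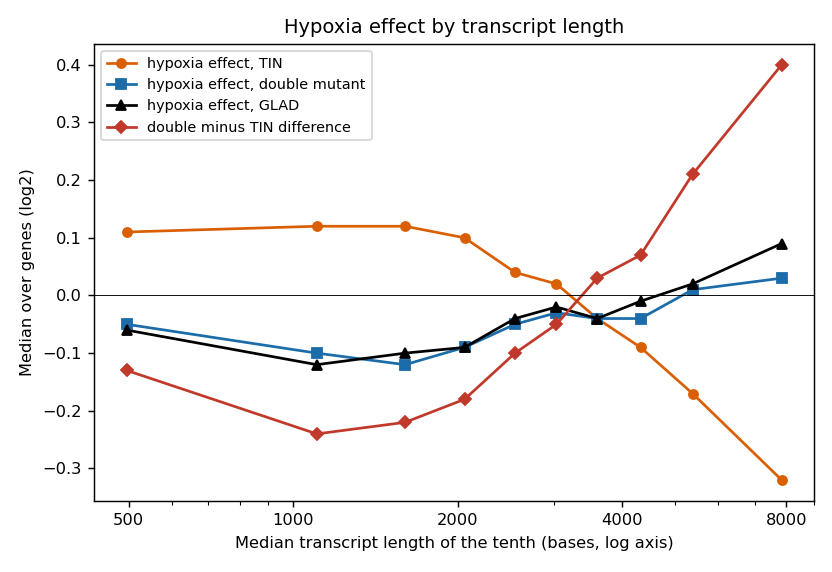
Median hypoxia effect (log2, y axis) of genes in 10 groups of equal size by transcript length (x axis, bases, log scale) in TIN, the double mutant and GLAD, and the median interaction. The TIN line falls from 0.11 to -0.32, while the other 2 mutants end at 0.03 and 0.09 and the interaction ends at 0.40.

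Respiratory chain genes mostly fell in the double mutant, and few were called in TIN. Of 73 nuclear-encoded subunits, 54 fell with hypoxia in the double mutant and 1 rose, 10 fell in TIN and 12 rose, and 65 fell in GLAD. The interaction was lower for 47 and higher for 0 (median -0.49), beside 21.4% of all genes in each direction. Short subunits led, with Atp5e at -1.21, Cox7b at -1.13 and Cox6c at -1.13. With the length and GC trend removed, 33 were lower and 4 higher and the median was -0.28. Of the 47 called genes, 45 were held mostly by hypoxia, but for 43 of the 47 this was a widening of a gap of the same sign. In normoxia 51 of the 73 were already called lower in the double mutant (median gap -0.34), beside 25.8% of all genes. In hypoxia 73 were (median gap -0.79), beside 31.9% of all genes.

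Genes of the mitochondrial DNA moved further. Of 12 measured protein-coding genes, 9 had a lower and 0 a higher interaction (median -1.58, and -1.52 with the trend removed). The double mutant was already called lower in normoxia for 9 of the 12 (median gap -0.74), and in hypoxia for 11 (median gap -2.57). mt-Cytb (chrM:14145-15288, plus strand), the cytochrome b of complex III, read 1550 and 1003 CPM in TIN normoxia, 1109 and 968 in TIN hypoxia, 789 and 755 in double-mutant normoxia and 145 and 188 in double-mutant hypoxia. It was not called in TIN (-0.27 ± 0.18) and fell by 2.22 ± 0.18 in the double mutant (interaction -1.96 ± 0.26, adjusted p = 1.3e-05). The lowest was mt-Nd6 (-2.22), which lies opposite mt-Nd5, and among transfer RNAs mt-Te, which lies next to mt-Cytb, reached -2.69 ± 0.35. TIN normoxia library A held more of these transcripts than library B (summed 7401.4 against 4537.5 CPM). Without A the median was -1.96 and without B -1.21, with 11 and 8 genes called lower. mt-Co2, mt-Co3 and mt-Atp6, at under 2 CPM, were not called. Tricarboxylic acid cycle genes were called in 5 of 19 cases, 3 lower and 2 higher (median -0.10), against 42.8% of all genes. After removal of the length and GC trend 1 was lower and 4 higher, with a median of 0.06.

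Of 28 telomere and shelterin genes, 7 were higher and 5 lower (median 0.09), a share of calls near the 42.8% of all genes, so the count sets nothing apart. Naf1, a telomerase RNA assembly factor, fell in TIN from 24.9 and 24.3 to 18.3 and 16.9 CPM and rose in the double mutant from 16.1 and 16.4 to 26.7 and 23.6 (interaction 1.09 ± 0.17). Tnks (1.05) and Tnks2 (1.04), the tankyrases that modify TRF1, fell in TIN and were not called in the double mutant. After removal of the trend on length and GC content the interactions were 1.13 for Naf1 and 0.65 for Tnks, and both were still called. Tinf2, which encodes TIN2 (-0.46), and Fen1 (-0.48), a flap nuclease of telomere replication, rose in both mutants and more in TIN. Pif1, a helicase that unwinds G-quadruplexes, fell in both, from 29.3 and 23.5 to 13.4 and 11.4 CPM in TIN and from 18.1 and 16.6 to 4.87 and 5.40 in the double mutant. Its interaction was -0.61 ± 0.19 (adjusted p = 1.5e-02) and lost its call without any of 4 single libraries. Terf2 (-0.30, adjusted p = 5.7e-02) was not called.

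DNA replication genes were called in 21 of 48 cases, 8 higher and 13 lower (median -0.09), with Rpa3 at -0.99 and Pola1 at 0.79. Mitosis genes were lower in 11 and higher in 5 of 39 (median -0.18), with Ccnb2, cyclin B2, at -0.96. Both counts lie near the 42.8% called over all genes. Homologous recombination and Fanconi genes were higher in 10 and lower in 2 of 35 (median 0.10), beside 21.4% of all genes in each direction. After removal of the length and GC trend 8 were higher and 5 lower, and the median was -0.02. Atr, the replication stress kinase, fell by 0.42 in TIN and rose by 0.76 in the double mutant (interaction 1.19 ± 0.14), and Fancg (-1.11) reversed the other way.

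Matrix genes had a lower interaction in 23 and a higher one in 4 of 40 cases (median -0.45). For this list and those that follow, the share over all genes was 21.4% in each direction. Postn, a matrix protein of remodelling tissue, rose from 1.75 and 2.13 to 8.43 and 8.77 CPM in TIN and fell from 208 and 224 to 196 and 166 in the double mutant (-2.16 ± 0.14), and the collagenase Mmp13 (-1.97) rose in both. Contractile and TGF-beta genes were lower in 11 and higher in 6 of 25 (median -0.40), with the myosin light chain Myl9 at -2.59 and the receptor Tgfbr1 at 1.24. Replication-dependent histones were lower in 5 and higher in 0 of 8 (median -1.29) at mean levels of 0.536 to 29.8 CPM. Cholesterol synthesis genes were lower in 9 and higher in 5 of 25 (median -0.21), with Sqle, squalene epoxidase, at 1.02. Chaperones of the endoplasmic reticulum were lower in 5 and higher in 3 of 22 (median -0.19). Ribosomal protein genes differed little: 2 of 75 were higher and 2 lower (median -0.15), which became 17 and 1 (median 0.07) with the length and GC trend removed.

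Summed markers of other cell types stayed low beside the fibroblast sum. Of the 11 fibroblast markers tested, 8 had a lower and 1 a higher interaction (median -0.56), and Thy1 was too low to be tested. Summed epithelial markers lay between 2.1 and 63.9 CPM over the 8 libraries, endothelial between 3.9 and 13.1, myeloid between 32.5 and 77.0, muscle between 1.9 and 6.4, and adipocyte between 21.3 and 47.5. The neural sum of 262.9 to 364.8 CPM came mainly from Map2 and Nes, while Dcx, a marker of young neurons, was at 0 to 0.1 CPM. Tubb3 read 4.9 to 60.6 CPM and Sox2 10.7 to 40.4, both higher in every TIN library than in any double-mutant library. The pan-leukocyte marker Ptprc was at 0 to 0.101 CPM and Tyrobp at 0 in every library. The myeloid sum came mainly from Cd68 (7.04 to 41.4 CPM), Csf1r (15.3 to 27.4) and Cd14 (6.05 to 17.5). Most of the epithelial sum was Krt19, which rose from 8.69 and 7.40 to 58.3 and 61.4 CPM in TIN and from 0.489 and 0.10 to 13.8 and 14.7 in the double mutant (interaction 1.43 ± 0.31). Their part in the results above was not tested.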

How the data were processed

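RNA-seq of transformed mouse embryonic fibroblasts was analysed in 14 libraries, 8 of which enter the contrast. The authors deposited CPM values for 52636 genes; per the submitters' processing notes STAR, HTSeq and the builds GRCm38.p4 and mm10 were named, while for versions, annotation and strand setting nothing is given in the sources used here. The unit was CPM, so the tests planned for read counts were not used. Depth was estimated from the spacing of low values. The 16157 genes that reached 1 CPM in 2 or more of the 14 libraries were kept, scaled by TMM and taken as log2 after adding 0.5 CPM, which understates changes of low genes. Means of 7 groups were fitted in limma 3.58.1 (R 4.3.3), and genes were called at a Benjamini-Hochberg adjusted p under 0.05 over all genes tested. Leaving out libraries, other added values, filters and scalings, a replicate block, a fit of 4 groups and removal of a length and GC trend were tried. Genes were named by size of interaction among called genes with a mean of at least 5 CPM over the 8 libraries, by reversal with an effect of at least 1 in both mutants and the same mean, and by membership in 27 lists of function and 7 of cell type markers. The members and lists were chosen with earlier results of these data known. The fit was tested on simulated data with an assumed spread between libraries and altered genes of at least 5 CPM. It recovered 37.9% of interactions of 0.5 (log2), 91% of 1 and 100% of 1.5, with 7 false calls among 16359 genes. A gene not called can therefore still differ by about 0.5. Gene positions, lengths and overlaps came from a GRCm38 annotation and promoters from RefSeq.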

Additional observations from a re-analysis of the deposited data

Results flagged for a closer look

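The hypoxia effect differed between the mutants, by the test of the difference itself in limma, for 3452 genes with a higher and 3456 with a lower effect in the double mutant. Opposite called effects in the 2 mutants were found for 514 genes that rose in TIN and fell in the double mutant and for 523 that fell in TIN and rose in the double mutant. Among genes with a mean of at least 5 CPM that rose by at least 1 in TIN and fell by at least 1 in the double mutant, the largest interactions were those of Zbp1 (interaction -4.10), Oas2 (-3.91), Ifi47 (-3.90), Apol6 (-3.55), Ifi27l2a (-3.52) and Iigp1 (-3.41).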

How the results depend on the processing

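Of the 122 genes tracked, none reversed under the 17 alternatives run, of which the filter of 5 CPM kept 112 of the genes, and alternatives that need read counts were not run. Leaving out each library in turn gave 2766 to 3350 genes higher, 2744 to 3450 lower, 353 to 506 that rose in TIN and fell in the double mutant, and 330 to 522 with the opposite reversal. The last count was 330 without TIN hypoxia library A and 332 without double-mutant hypoxia library A, against 523; fewer samples were then fitted. With the replicate block the counts were 3521 higher, 3548 lower, 541 and 546, although letters A and B did not pair the libraries (correlations of deviations from -0.058 to 0.095). Without the low-value filter 373 and 372 genes reversed, and with 4 groups only 678 and 729. On the deposited CPM without further scaling 3228 were higher and 3745 lower. After the trend on length and GC content was removed, 82.0% of the original calls were shared. Of the 32 gene lists tracked, 20 were then unchanged, 11 moved and 1 reversed, the fewest unchanged under any alternative. The median of DNA replication genes was 0.01 instead of -0.09, and the medians of ribosomal protein, tricarboxylic acid cycle and homologous recombination genes also changed sign. The cause was not tested. Values under 0.252 CPM are within 3 reads of 0.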
